A study of Mus musculus with 2 samples.

Results

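The transcription factor genes Sox2, Sox9, Sox21, Sox4 and Sox11 were followed in the epithelium of the mouse lung at embryonic day 15. They were taken by symbol from the gene list of the control library, where they are 5 of 31053 genes and 5 of the 26 genes whose symbols name a SOX gene. Their raw unique molecular identifiers (UMIs, 1 for each captured RNA molecule) were counted in cells with at least 1000 genes and at most 10% mitochondrial UMIs.

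SOX proteins bind DNA through an HMG box and are grouped by the likeness of that box. In the branching lung, SOX2 is known for marking the proximal, airway-forming stalk, and SOX9 for marking the distal tips, whose progenitors give rise to the alveoli. SOX21 belongs to a branch of the SOX2 group that mostly represses transcription. SOX4 and SOX11 belong to the SOXC group, found in progenitors of many tissues.

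The series asks what the LEF/TCF transcription factors, the nuclear effectors of Wnt signalling, do in lung epithelial progenitors. It holds 1 control library and 1 library of LEF/TCF knockouts, both of sorted lung epithelial cells from embryonic day 15 and both made with the 10x Chromium 3′ kit, version 2. Only the control library, labelled by the genotype "control" with no alleles given, was analysed for expression; expression in the knockout library was not analysed here. The libraries share 29 barcodes, of 3568 in the control library and 5342 in the knockout library.

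Of the 3568 control barcodes, 3457 passed the filters, with 2013 to 112424 UMIs per cell and a median of 12826. Clusters built without any SOX gene split them into 3414 epithelial cells and 43 mesenchymal-like cells. Clusters were called epithelial from the 5 pan-epithelial genes Epcam, Cdh1, Krt8, Krt18 and Nkx2-1, so the levels of these genes describe the call. They summed to 1900 CPM (a gene's UMIs per 1000000 UMIs of the class) in airway-like cells, 1736 CPM in the other epithelial cells and 16.4 CPM in the mesenchymal-like cells. A pair of clusters, together 747 cells, was airway-like from Scgb3a2, Krt15 and Trp63. In the smaller, of 121 cells, Trp63 rests on 3 UMIs and Krt15 on 31, so its name is the less certain, and values of the 2 clusters are also given apart. The other 2667 epithelial cells, in which the distal progenitor genes Id2, Etv4, Etv5, Mia, Bmp4 and Sftpc summed to 3099 CPM against 515 CPM in airway-like cells, are called non-airway here. The library held cells with 4 or more UMIs of Xist, which is transcribed from the inactive X chromosome, together with a UMI of a Y-linked gene. These 249 cells, called mixed-sex below, had a median of 30401 UMIs against 12226 in the others, and made up 5.22% of airway-like and 7.87% of non-airway cells. The rule counts UMIs without regard to depth, so deeper cells meet it more readily, also through a stray Y-linked UMI. How far this raises the mixed-sex share of deep cells was not tested. Since each group is a single library, no replicate spread exists and no test was made. Intervals are at 95% throughout and reflect counting error alone.

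On GRCm38 in the GENCODE M21 annotation, Sox2 lies at chr3:34650405-34652461 (plus strand, 1 exon) inside the noncoding gene Sox2ot on the same strand. Sox2ot is absent from the gene list and was not analysed here, so any reads of it over the Sox2 exon cannot be told apart from Sox2 reads. Sox9 lies at chr11:112782224-112787760 (plus strand, 3 exons) and Sox11 at chr12:27334264-27342574 (minus strand, 1 exon). The single-exon genes Sox21, at chr14:118233232-118237030, and Sox4, at chr13:28948919-28953713, are on the minus strand, and each overlaps a lincRNA gene on the opposite strand, Gm4675 for Sox21 and Gm26735 for Sox4. Whether the counting used strand is not given in the sources used here, so reads of these overlapping pairs cannot be told apart from the sources.

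The promoters of Sox2 and Sox21 are shown because RNA of these genes varied together in the values below. Those of Sox4 and Sox11 are shown because this SOXC pair varied together in only some of them. RefSeq promoters on GRCm38.p6 matched 4 of the 5 members; Sox9 is named only. The 250 bases before each RefSeq start are printed 5′ to 3′ on the strand of the gene. For Sox2 and Sox11 this window ends short of the GENCODE start given above. The Sox4 window runs past that start into the gene as annotated by GENCODE, and the last of its CCAAT matches lies in that part. Capitals mark 2 motifs searched on both strands: CCAAT (read as ATTGG on the other strand), the box bound by NF-Y, and CAAAG (read as CTTTG), a form of the core shared by SOX and LEF/TCF binding sequences.
Sox2 (chr3:34649745-34649994, plus strand): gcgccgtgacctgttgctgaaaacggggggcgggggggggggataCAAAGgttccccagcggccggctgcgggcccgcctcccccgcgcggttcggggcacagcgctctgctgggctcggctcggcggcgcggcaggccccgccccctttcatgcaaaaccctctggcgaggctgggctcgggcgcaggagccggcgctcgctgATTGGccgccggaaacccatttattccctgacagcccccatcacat
Sox21 (chr14:118237031-118237280, minus strand): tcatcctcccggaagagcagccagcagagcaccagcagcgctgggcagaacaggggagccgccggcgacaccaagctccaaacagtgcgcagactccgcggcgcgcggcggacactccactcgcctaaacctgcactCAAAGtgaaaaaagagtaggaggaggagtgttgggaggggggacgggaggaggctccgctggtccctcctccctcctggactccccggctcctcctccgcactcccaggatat
Sox4 (chr13:28953700-28953949, minus strand): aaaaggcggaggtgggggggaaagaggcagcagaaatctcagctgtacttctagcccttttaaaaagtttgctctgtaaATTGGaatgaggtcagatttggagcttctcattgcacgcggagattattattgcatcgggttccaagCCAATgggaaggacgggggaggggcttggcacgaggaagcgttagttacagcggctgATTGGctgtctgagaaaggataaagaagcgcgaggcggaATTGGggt
Sox11 (chr12:27342719-27342968, minus strand): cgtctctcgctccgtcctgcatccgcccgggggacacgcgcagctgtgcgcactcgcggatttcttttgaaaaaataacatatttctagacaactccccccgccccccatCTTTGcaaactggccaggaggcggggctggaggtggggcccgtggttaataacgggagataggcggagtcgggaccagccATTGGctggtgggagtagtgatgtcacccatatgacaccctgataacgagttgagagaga
Matches of the motifs did not overlap in these windows. The Sox4 window held 4 matches of CCAAT and none of CAAAG, the Sox21 window held 1 match of CAAAG and none of CCAAT, and the Sox2 and Sox11 windows held 1 of each. Of 32851 promoter windows of this length, 33.9% held CCAAT and 48.6% held CAAAG, so either motif is common. A match describes the letters and is not a binding site.

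Sox2, the stalk factor, was high in airway-like cells and low elsewhere in the epithelium. Its level was 144 CPM (1236 UMIs, interval 136 to 153) in airway-like cells and 10.8 CPM (481 UMIs, interval 9.82 to 11.8) in non-airway cells, a 13.4-fold difference (interval 12.1 to 14.9). In such sums, fewer cells with a transcript and less RNA per cell cannot be told apart. The airway-like clusters, of 626 and 121 cells, were alike at 143 and 149 CPM, and the other epithelial clusters lay between 2.52 CPM in the alveolar type 2-like cluster and 21.6 CPM in an unnamed cluster of 723 cells led by Cym, Smoc2 and Ager. In the 43 mesenchymal-like cells no Sox2 UMI was found among 365466, which allows up to 8.21 CPM.

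From 5000 UMIs upward, the low Sox2 level of non-airway cells was higher in bins of deeper cells, which held more mixed-sex cells. It was 1.45 CPM in cells of 5000 to 8000 UMIs, 4.93 CPM at 14000 to 20000, 16.1 CPM at 20000 to 30000 and 21.2 CPM at 30000 or more. Mixed-sex cells made up 0.505%, 2.91%, 18% and 45.9% of those bins. The 41 non-airway cells under 5000 UMIs, none of them mixed-sex, went against this order with 30.7 CPM on 5 UMIs (interval 9.96 to 71.6). In the unnamed cluster with 21.6 CPM, mixed-sex cells were 19.9% of the cells; Sox2 was at 32.7 CPM in them and at 16.1 CPM in the others. Without mixed-sex cells, Sox2 was 20.4-fold higher in airway-like cells (interval 17.8 to 23.4), and among cells of at most 14000 UMIs it was 36.1-fold higher (interval 27.4 to 48.4). Beyond these values, the part of mixed-sex cells in the difference was not tested.

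Sox21, the repressor of the SOX2 group, followed Sox2 at its own lower count. It had 24.4 CPM in airway-like cells (209 UMIs, interval 21.2 to 27.9) and 2.44 CPM in non-airway cells (109 UMIs, interval 2.0 to 2.94), a 10.0-fold difference (interval 7.90 to 12.7). The airway-like clusters stood at 24.2 and 25.1 CPM, the unnamed Cym, Smoc2 and Ager cluster at 4.70 CPM, and the cluster of 422 cells with the mitotic genes Ube2c and Cenpa among its leading genes held no Sox21 UMI, which allows up to 0.645 CPM. The ratio was 14.0 without mixed-sex cells (interval 10.4 to 19.0) and 19.6 among cells of at most 14000 UMIs (interval 12.0 to 33.7). Clustering at resolution 1.0 left 461 airway-like cells, and the non-airway to airway-like ratio was then 0.236 for Sox21, against 0.10, and 0.168 for Sox2, against 0.0746.

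Sox9, the tip factor, had the opposite pattern. Its level was 152 CPM in non-airway cells (6787 UMIs, interval 148 to 155) and 38.0 CPM in airway-like cells (326 UMIs, interval 34.0 to 42.4), a 3.99-fold difference (interval 3.57 to 4.47). Among the larger non-airway clusters it was highest at 187 CPM in a cluster of 844 cells with Meg3, Spry2 and Bmp4 among its leading genes. It was at 170 CPM in the alveolar type 2-like cluster, 129 CPM in the Ube2c and Cenpa cluster and 122 CPM in the Cym, Smoc2 and Ager cluster. The last 2 do not differ beyond their counting intervals, which are 119 to 140 and 117 to 127. Top2a, a gene of cycling cells, was at 195, 176, 165 and 115 CPM in these clusters in the same order. The Ube2c and Cenpa cluster is thus not the only one with cycling cells. The mesenchymal-like cells had 2 Sox9 UMIs, or 5.47 CPM (interval 0.663 to 19.8).

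Sox9 was not at 0 in airway-like cells, and its level there moved with depth. No Sox9 UMI was found in the 46 airway-like cells under 5000 UMIs. Above that depth the level was 18.3, 24.3 and 22.5 CPM in the bins up to 14000 UMIs and 51.3, 58.0 and 75.0 CPM in the bins from 14000 upward, where 11.8%, 31.0% and 38.1% of the cells were mixed-sex. Without mixed-sex cells the non-airway to airway-like ratio was 4.69 (interval 4.13 to 5.35), and among cells of at most 14000 UMIs it was 6.89 (interval 5.63 to 8.51). Other settings lowered it: the ratio was 1.64 when cells needed at least 2000 genes (interval 1.55 to 1.72), 2.79 and 2.91 with mitochondrial limits of 5% and 20%, and 2.88 with 10 principal components. For each 100 UMIs of Sftpc, the surfactant protein C gene, airway-like cells held 33.2 Sox9 UMIs and non-airway cells 9.43; for each 100 UMIs of Etv5, an FGF-responsive factor of the tips, they held 123 and 65.5. For Mia the values were 62.7 and 58.0, close to each other, and for Id2 they were 12.6 and 16.4, in the opposite order. The proportion of Sox9 to distal genes thus depended on the gene it was set against.

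Sox4, of the SOXC group, was found throughout the library and was moderately higher in airway-like cells. It had 552 CPM there (4734 UMIs, interval 537 to 568) and 385 CPM in non-airway cells (17224 UMIs, interval 380 to 391), a 1.43-fold difference (interval 1.39 to 1.48). The airway-like clusters differed from each other, at 589 CPM in the larger and 402 CPM in the smaller, which carries mitotic genes among its leading genes. The Cym, Smoc2 and Ager cluster, at 456 CPM, lay above the smaller airway-like cluster, so the classes overlap for Sox4. The mesenchymal-like cells had 339 CPM (interval 282 to 405).

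Sox11, also of the SOXC group, was close to even along the axis. It stood at 154 CPM in airway-like cells (1322 UMIs, interval 146 to 163) and 179 CPM in non-airway cells (8015 UMIs, interval 175 to 183), a ratio of 1.16 in favour of the non-airway cells (interval 1.10 to 1.23). Clusters of at least 43 cells ran from 148 CPM in the Ube2c and Cenpa cluster to 212 CPM in the Meg3, Spry2 and Bmp4 cluster, with the mesenchymal-like cells at 167 CPM. When cells needed at least 2000 genes, the rebuilt airway-like class held 1068 cells, and the Sox11 ratio was 1.0001 (interval 0.959 to 1.04).

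**Figure D1:**
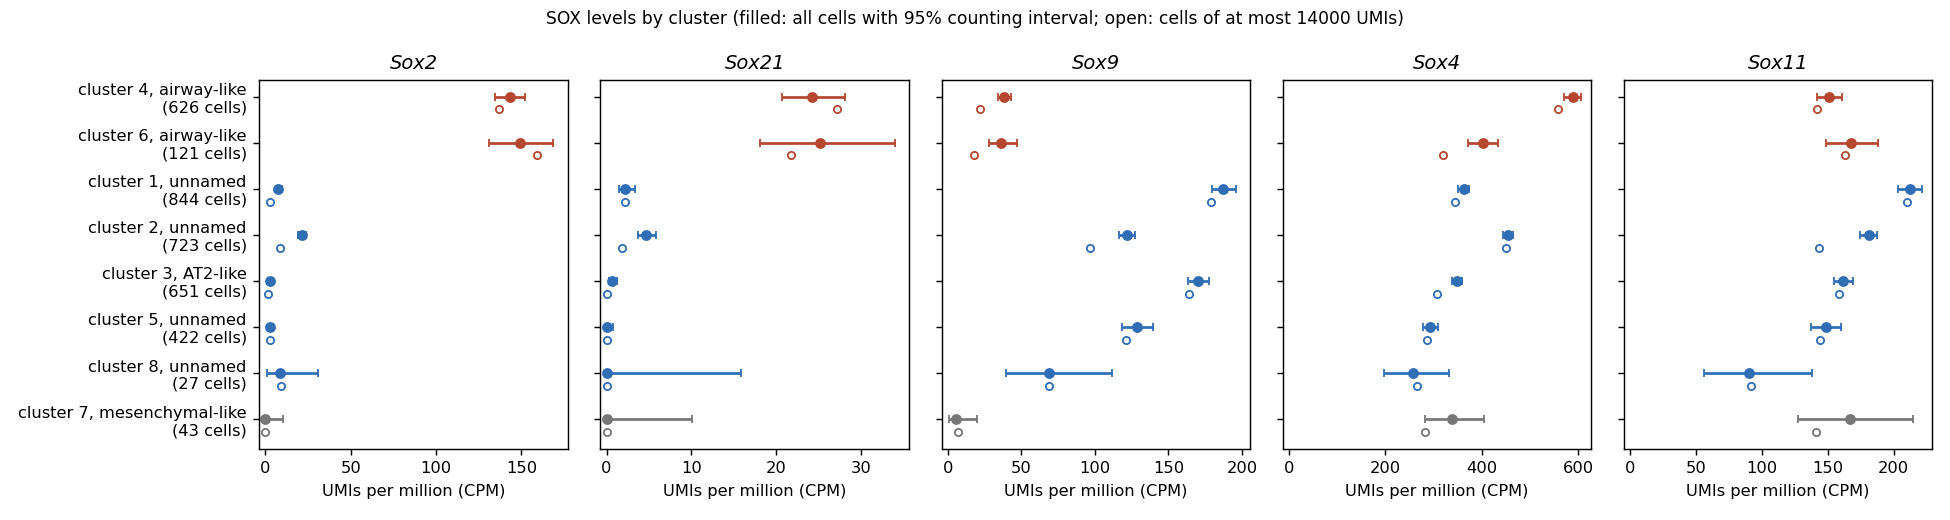
Levels of the 5 SOX genes in CPM (horizontal axes, linear, each from 0) in the 8 clusters, named on the left with their cell numbers; filled points are all cells with a 95% counting interval and open points are cells of at most 14000 UMIs. Sox2 and Sox21 stand at 143 to 149 and 24.2 to 25.1 in the red airway-like clusters and far lower in the blue clusters, Sox9 is lowest among epithelial clusters in the red ones at 36.5 and 38.4, and Sox4 and Sox11 overlap between colours.

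Shares of cells with a UMI were compared after thinning each cell to 5000 UMIs, which left 701 airway-like, 2626 non-airway and 38 mesenchymal-like cells. A Sox2 UMI was present in 43.9% of airway-like cells (interval 40.2 to 47.7; 62.9% before thinning, median depth 9189) and 2.74% of non-airway cells (interval 2.15 to 3.44; 8.51% before thinning, median depth 13786). In mesenchymal-like cells, which should lack Sox2 and had a median depth of 7246, the share was 0 of 38, a count that allows up to 7.89%. That limit is set by the small number of these cells, and the non-airway share lies under it. By level over all UMIs, the non-airway Sox2 interval of 9.82 to 11.8 CPM lies above the 3-count limit of 8.21 CPM in mesenchymal-like cells. It overlaps the exact Poisson interval of those cells, which ends at 10.1 CPM. The non-airway level was 7.15 CPM without mixed-sex cells and 3.89 CPM among cells of at most 14000 UMIs, both under 8.21 CPM. The mesenchymal-like cells thus do not set non-airway Sox2 apart from background. Sox21 was present in 9.70% of airway-like cells (15.3% before thinning), 1.03% of non-airway cells (3.07% before thinning) and 0 of 38 mesenchymal-like cells. Its non-airway level of 2.44 CPM lies under the same 8.21 CPM, so these few cells give no lower background to set it against.

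A Sox9 UMI was present in 46.9% of non-airway cells (interval 45.0 to 48.8; 75.3% before thinning) and 12.6% of airway-like cells (interval 10.2 to 15.2; 21.7% before thinning). One of the 38 mesenchymal-like cells had a Sox9 UMI, a share of 2.63% whose interval, 0.0666 to 13.8, contains the airway-like value. Sox4 was detected in 85.2% of airway-like, 78.4% of non-airway and 68.4% of mesenchymal-like cells (92.6%, 93.6% and 74.4% before thinning). For Sox11 the shares were 47.2%, 55.0% and 52.6% (67.9%, 84.3% and 62.8% before thinning). The SOXC genes were thus detected in all 3 classes, and the library holds no class that should lack them.

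Cells with UMIs of both Sox2 and Sox9 were fewer than the product of the single shares. At 5000 UMIs, 62 of 3327 epithelial cells held both, or 1.86% (interval 1.43 to 2.38), where the product of the shares of Sox2 (11.4%) and Sox9 (39.7%) is 4.53%; the observed share was 0.411 of the product. Without mixed-sex cells it was 47 of 3078 cells, or 1.53% against a product of 4.25%, a ratio of 0.359. Inside each class the shortfall was smaller: the ratio was 0.957 in airway-like cells (37 cells, interval 0.679 to 1.31) and 0.740 in non-airway cells (25 cells, interval 0.480 to 1.09), and both intervals contain 1. With 2 or more UMIs required of each gene, 0.150% of cells held both, 0.264 of the product.

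The share of cells with both factors varied with depth. Counting all UMIs of a cell, the share with both was 2.49% in cells of 5000 to 8000 UMIs (product 8.24%) and 2.31% at 8000 to 11000 (product 8.76%). It was 7.15% at 14000 to 20000 (product 11.6%), 19.7% at 20000 to 30000 (product 24.6%) and 35.3% at 30000 or more (product 36.3%). The ratio to the product was 0.302 and 0.263 in the shallow bins, 0.615 at 14000 to 20000 and 0.803 at 20000 to 30000, where 19.7% of cells were mixed-sex. The deepest bin is no reading of joint detection, because Sox9 was found in 96.0% of its cells: the single shares alone put the share with both between 33.8% and 37.8%, and the ratio of 0.972 could not have been under 0.932. In mixed-sex cells of all depths, 41.0% held both against a product of 42.9%, where the single shares allow no less than 36.9%.

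Leaving mixed-sex cells out, the ratio was 0.584 at 14000 to 20000 UMIs (interval 0.430 to 0.774) and 0.742 at 20000 to 30000 (interval 0.564 to 0.95), against 0.303 at 5000 to 8000 (interval 0.146 to 0.551). A droplet that caught cells of unlike sex can be marked this way, and one that caught cells of like sex cannot. A deep single cell with a stray Y-linked UMI could be marked as well. After thinning to 5000 UMIs, where the single shares set no lower bound above 0, the cells that had been deepest still had a ratio of 0.728, with an interval of 0.379 to 1.25 on 12 cells, against 0.241 for those that had been shallowest (interval 0.0887 to 0.520).

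**Figure D2:**
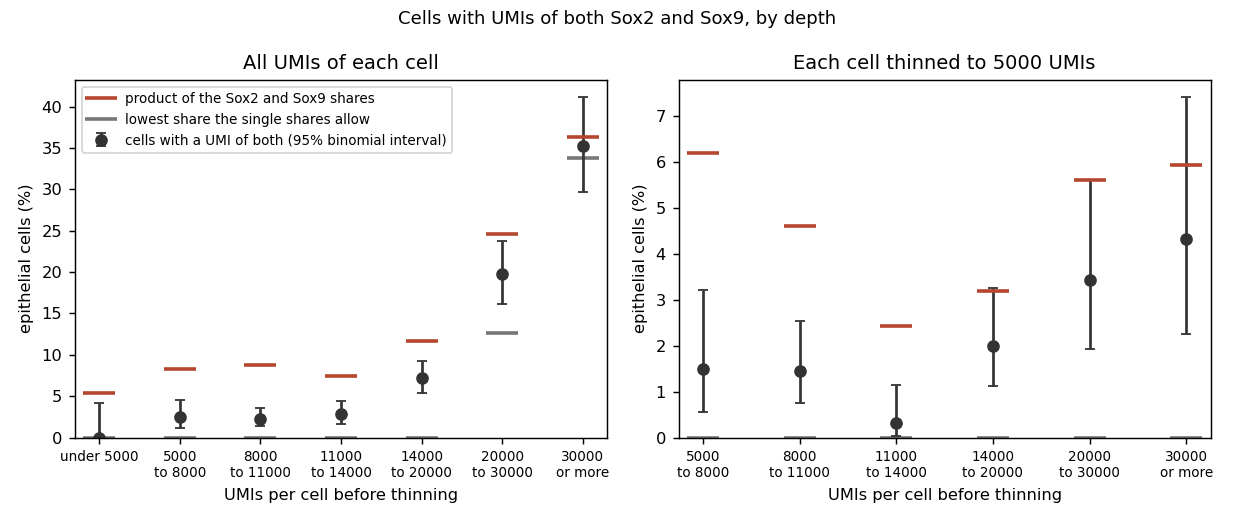
Percentage of epithelial cells with a UMI of both Sox2 and Sox9 (black points with 95% binomial intervals) beside the product of the single shares (red lines) and the lowest share that the single shares allow (grey lines), by UMIs per cell before thinning; the left panel uses all UMIs and the right panel 5000 UMIs drawn from each cell. On the left the observed share is 2.49% at 5000 to 8000 UMIs, under the product of 8.24%, and 35.3% at 30000 or more, where the grey line at 33.8% leaves it little room under the product of 36.3%.

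Among the other pairs of members, Sox2 and Sox21 stood out in the direction of joint detection. At 5000 UMIs, 51 epithelial cells held both, 4.70 times the product of the shares (interval 3.51 to 6.16), and inside airway-like cells 47 held both, 1.57 times the product (interval 1.17 to 2.07). Sox21 and Sox9 were found together in 17 cells, 0.451 of the product (interval 0.263 to 0.721). The 7 pairs that include Sox4 or Sox11 ran from 0.964 to 1.11 of the product over epithelial cells. Sox4 was found in 79.8% of these cells, which leaves its pairs little room. Sox2 and Sox4 were found together in 10.2% of cells, where the product is 9.12% and the single shares allow at most 11.4%. For Sox9 and Sox4 the ratio could not have been under 0.616. Values near 1 for pairs with Sox4 are thus a weak reading of joint variation.

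Within airway-like cells, Sox9 detection did not follow the amount of Sox2. A Sox9 UMI was present in 13.0% of the 393 cells with no Sox2 UMI, 12.2% of the 196 with 1 and 11.6% of the 112 with 2 or more, and these intervals overlap widely. Sox21 did follow it: its level was 12.7 CPM with no Sox2 UMI (interval 8.23 to 18.8), 39.8 CPM with 1 (interval 28.3 to 54.4) and 53.6 CPM with 2 or more (interval 36.1 to 76.5). The lowest interval does not reach the other 2, which overlap each other. A fine group of 40 airway-like cells, described below, held 49 of the 209 Sox21 UMIs of airway-like cells before thinning. Neither these Sox21 levels nor the joint detection of Sox2 and Sox21 was read without it. In non-airway cells a Sox9 UMI was present in 47.3% of the 2554 cells with no Sox2 UMI (interval 45.3 to 49.2). It was present in 35.5% of the 62 with 1 (interval 23.7 to 48.7) and 3 of the 10 with 2 or more (interval 6.67 to 65.2). These share intervals overlap. The Sox9 level in non-airway cells was 154 CPM with no Sox2 UMI (interval 148 to 161) and 96.8 CPM with 1 (interval 65.3 to 138). The latter rests on 30 UMIs. The level intervals do not overlap, but they cover counting error alone.

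Epithelial cells were then grouped by Sox2 and Sox9 at 5000 UMIs, and the 3 members not used for grouping were read in the groups. There were 318 Sox2-only cells, of which 85.2% were airway-like, and 1258 Sox9-only cells, of which 4.05% were. Sox21 had 35.2 CPM in Sox2-only and 2.19 CPM in Sox9-only cells, 16.1-fold higher in Sox2-only cells (interval 11.52 to 22.9). Sox4 had 575 and 370 CPM, 1.55-fold higher in Sox2-only cells (interval 1.48 to 1.62). Sox11 had 170 and 184 CPM, a ratio of 1.09 in favour of Sox9-only cells with an interval of 1.0035 to 1.17. That interval contained 1 under 5 alternatives, with lower ends of 0.990 among cells of at most 14000 UMIs, 0.985 without mixed-sex cells, 0.984 at 8000 UMIs, 0.927 with 2 or more UMIs as detection and 0.993 with at least 2000 genes. Median depths were 10190 and 13736 UMIs, and mixed-sex cells made up 10.7% and 7.0%. The Sox21 difference was 1.5 or more times larger without mixed-sex cells, at a Sox9-only to Sox2-only ratio of 0.0409 against 0.0621, and it was 0.0931 with another random thinning.

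Summed levels of the 62 cells with both factors lay between those of the single-factor cells for most genes read. Of these cells 59.7% were airway-like, their median depth was 18108 UMIs, and 24.2% were mixed-sex. Sftpc was at 694 CPM in them, between 325 CPM in Sox2-only and 1696 CPM in Sox9-only cells, and Etv5 was at 131 CPM, between 52.7 and 248. Sox21 was at 14.3 CPM, between 35.2 and 2.19. Scgb3a2, the early secretory gene of the airway, was at 250 CPM, next to the 242 CPM of Sox2-only cells and apart from the 17.3 CPM of Sox9-only cells. The airway-like share of these cells also lay between the 85.2% of Sox2-only and the 4.05% of Sox9-only cells. A sum over such a mix of classes can lie in between whatever the single cells are like. The part of class mix, of mixed-sex cells and of depth in these levels was not tested. The 1689 cells with neither factor, of which 20.2% were airway-like, were at 3.45 CPM for Sox21, 414 CPM for Sox4 and 168 CPM for Sox11.

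Genes of the distal program were higher in Sox9-only cells. Of 10638 genes with at least 50 UMIs over both groups, 6.38% were at least 1.5-fold higher in Sox9-only cells and 14.5% at least 1.5-fold higher in Sox2-only cells, with a median log2 ratio of -0.06 (after adding 10 CPM). Of 13 distal genes measured, 10 were higher in Sox9-only cells and 0 in Sox2-only cells, with a median log2 ratio of 1.28. The gene lists here and below were chosen with earlier results of these data known, so their counts are descriptions and not tests. Id2, Etv4, Etv5, Mia, Bmp4 and Sftpc also served above to describe the non-airway cells. Bmp4, a ligand made by the tips, was at 77.5 against 5.83 CPM (13.3-fold, interval 9.05 to 20.4). Sftpc was 5.22-fold higher, Etv5 4.71-fold, Mia 3.42-fold, and Id2, an inhibitor of basic helix-loop-helix factors known as a tip marker, 3.31-fold. Etv4 was 3.29-fold higher, Wnt7b, a Wnt ligand, 2.93-fold, and Foxp2, a forkhead factor, 2.54-fold. Spry2, an FGF feedback inhibitor, and Mycn were at 1.65 and 1.56.

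The other 3 measured distal genes did not reach 1.5-fold in either direction. Fgfr2, the receptor for FGF ligands of the mesenchyme, was at a ratio of 1.30, Nkx2-1, the lung identity factor, at 1.20, and Shh, a ligand to the mesenchyme, at 0.872. Lin28b had 15 UMIs in Sox9-only and 1 in Sox2-only cells, fewer than the 50 required.

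Proximal genes were higher in Sox2-only cells: 4 of 5 measured, and 0 in Sox9-only cells, with a median log2 ratio of -0.75. With at least 10 UMIs required in place of 50, 6 were higher in Sox2-only cells. Trp63 (22 UMIs against 2 in Sox9-only cells) and Cyp2f2 (9 against 1) were then among them. At that limit 1 proximal gene was past 1.5-fold the other way: Foxj1, the factor of ciliated cells, with 14 UMIs in Sox9-only and 1 in Sox2-only cells. The Foxj1 ratio was 2.97 with an interval that contains 1 (0.452 to 126). Scgb3a2 was at 242 against 17.3 CPM, 14.0-fold higher in Sox2-only cells (interval 12.4 to 15.8). Krt15, a keratin of immature airway and basal cells, was 3.13-fold higher, Klf5, a Krüppel-like factor, 2.16-fold and Elf3, an epithelial ETS factor, 1.88-fold. Hes1, a Notch target, was 1.42-fold higher. The other 6 genes of the list (Scgb1a1, Cyp2f2, Krt5, Trp63, Foxj1 and Upk3a) had fewer than 50 UMIs. These groups differ in class as well as in SOX genes, so the ratios cannot tell the factor apart from the cell class.

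Collagen genes known from cartilage as SOX9 targets were in part higher in Sox9-only lung cells. Of 6 measured, 4 were at least 1.5-fold higher there, against 6.38% of all genes measured. Col9a3 was at 13.6 against 0.896 CPM (286 and 4 UMIs, 15.2-fold, interval 5.86 to 56.0), and Col9a1 at 9.22 against 1.34 CPM (6.86-fold, interval 3.09 to 18.9). Col11a2 was 3.56-fold higher (interval 1.47 to 11.3) and Col2a1 2.40-fold (interval 1.83 to 3.20). Col11a1 stood at 0.911, and Hapln1, a link protein gene, was past 1.5-fold the other way at 0.636 with an interval that contains 1 (0.403 to 1.03). Acan and Matn1 were at 0 UMIs in both groups, and Col9a2 had 9 and 2 UMIs. In mesenchymal-like cells Col2a1, Col9a1 and Col9a3 had 0 UMIs. The 6 mesenchymal markers summed to 16.1 CPM in Sox2-only cells, with Col3a1 and Lum at 0, and to 2.71 CPM in Sox9-only cells. Most of the first sum was Dcn, a proteoglycan gene, with 63 of 72 UMIs, and Dcn gave 30 of 57 UMIs of the second.

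**Figure D3:**
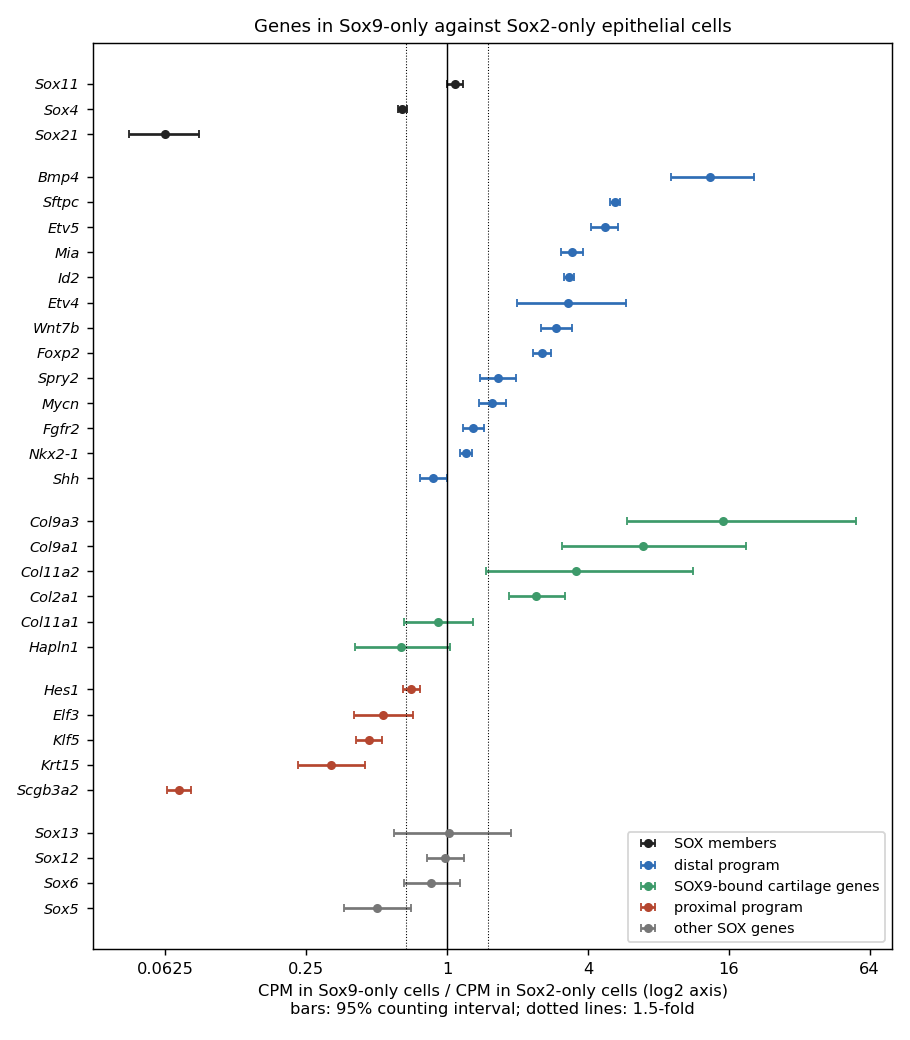
Ratio of levels in Sox9-only to Sox2-only epithelial cells (log2 axis) for the 3 members not used in the grouping and for the gene lists, with 95% counting intervals and dotted lines at 1.5-fold. Distal genes lie to the right up to 13.3 for Bmp4, proximal genes to the left down to 0.0716 for Scgb3a2, Col9a3 and Col9a1 lie at 15.2 and 6.86, and Sox21 lies at 0.0621.

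The 8 genes with the highest ratio, after adding 10 CPM and leaving the members out, were Dlk1, Bmp4, Clu, Sftpc, Etv5, Sftpa1, Cytl1 and Lin7a. Dlk1, an imprinted gene of a Notch-like membrane protein, was at 549 against 82.2 CPM (6.67-fold) and Clu, a secreted chaperone, at 193 against 28.9 CPM (6.68-fold). Sftpa1, surfactant protein A, was 11.3-fold higher. At the other end stood Scgb3a2, S100a6, Id4, Meis2, Mycl, 8430408G22Rik and Adam28. S100a6, a calcium-binding protein, was at 347 against 37.5 CPM (9.24-fold), Id4, an ID family inhibitor, at 142 against 13.4 CPM (10.6-fold) and Meis2, a homeobox factor, at 84.5 against 4.66 CPM (18.1-fold).

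The epithelium was also cut into 34 fine groups of at least 30 cells, again without SOX genes, to see how the members vary along it. Over these groups Sox2 ran from 0 to 354 CPM with a median of 5.80, Sox21 from 0 to 142 CPM with a median of 1.57, Sox9 from 5.81 to 241 CPM with a median of 130, Sox4 from 260 to 1330 CPM with a median of 415 and Sox11 from 111 to 309 CPM with a median of 165. In the 9 groups made mostly of airway-like cells Sox2 was at 91.1 to 354 CPM, and in the other 25 at 0 to 68.4 CPM, so the 2 kinds do not overlap. The non-airway group with 68.4 CPM of Sox2, singled out after its values were seen, consisted to 43.9% of mixed-sex cells. Sox9 ranges were 5.81 to 57.4 and 50.9 to 241 CPM and touch; Sox4 ranges, 396 to 1330 and 260 to 505 CPM, and Sox11 ranges, 111 to 293 and 133 to 309 CPM, overlap.

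Correlations across fine groups are given as descriptions; the groups share 1 library and differ in depth, and they form an airway-like and a non-airway cloud. On log2 values after adding 10 CPM, Sox2 and Sox21 had r = 0.98 over the 9 mostly airway-like groups and r = 0.88 over the 25 others. For Sox2 and Sox9 the values were -0.73 and -0.37. For Sox2 and Sox4 they were 0.62 and 0.64, and for Sox9 and Sox11 -0.30 and 0.58. A single airway-like group of 40 cells carried several of these: without it, over 8 groups, r was 0.94 for Sox2 and Sox21, -0.40 for Sox2 and Sox9, -0.32 for Sox2 and Sox4 and 0.63 for Sox9 and Sox11. Sox2 and Sox21 were thus the one of these 4 pairs with r above 0.8 in both kinds, with and without that group. Among the 25 others, the groups highest in Sox2, at 68.4, 42.2 and 22.2 CPM, had Sox21 at 15.7, 8.45 and 4.23 CPM. The median Sox21 level of the 25 was 0.929 CPM. Mixed-sex cells made up 43.9%, 32.4% and 20.9% of those high groups, and r was not read without them. For Sox4 and Sox11, a further pair, r was 0.60 over the mostly airway-like groups and 0.02 over the others. Without the group of 40 cells, the mostly airway-like value for this pair was -0.41.

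**Figure D4:**
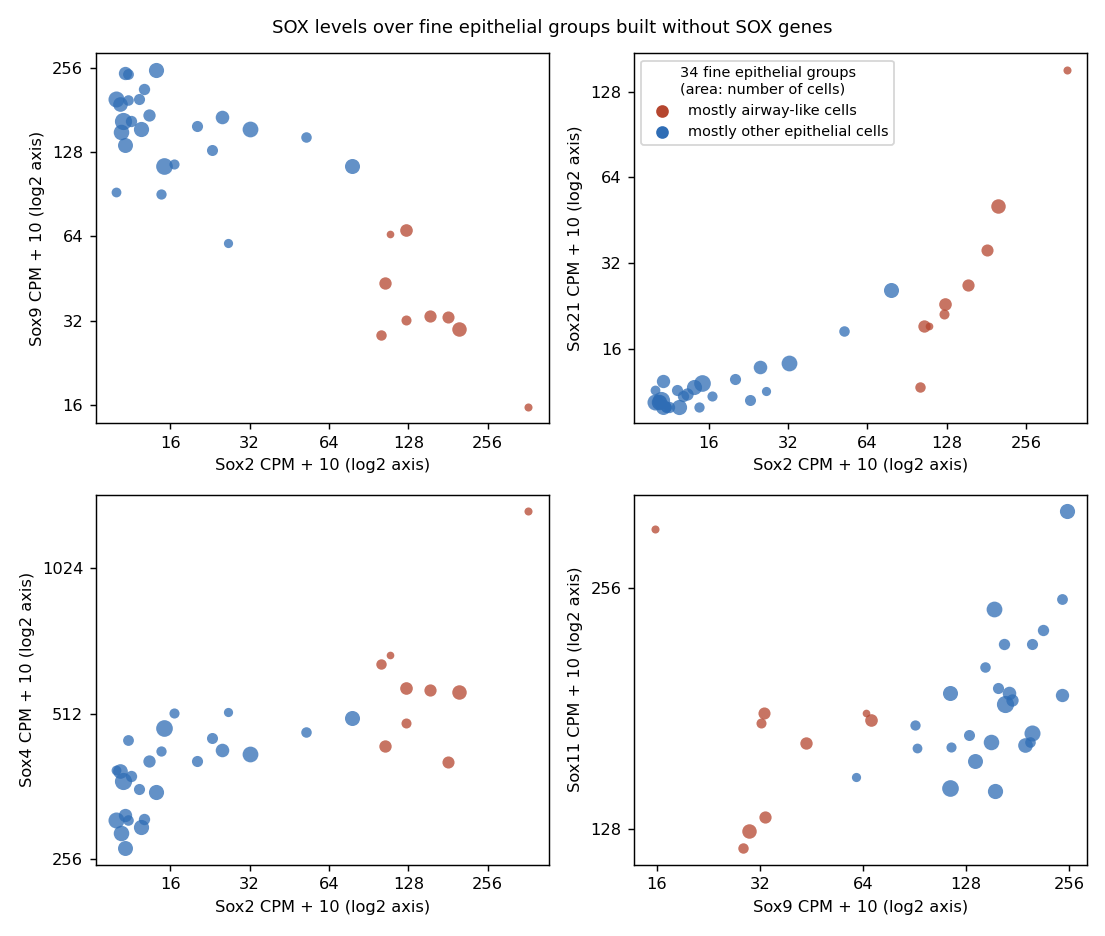
Levels of SOX gene pairs in 34 fine epithelial groups (CPM plus 10, log2 axes; point area shows cell number; red marks groups made mostly of airway-like cells). Sox21 climbs with Sox2 inside both colours, Sox9 is high where Sox2 is low, and 1 red group of 40 cells stands apart with Sox2 at 354, Sox21 at 142, Sox4 at 1330 and Sox9 at 5.81 CPM. The groups highest in Sox2 among those not in red are rich in mixed-sex cells.

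The group of 40 cells with the highest Sox4, singled out after its values were seen, was also the highest in Sox2 and Sox21. It had 354 CPM of Sox2 (interval 294 to 423), 142 CPM of Sox21 (interval 105 to 188), 1330 CPM of Sox4 (interval 1211 to 1458), 293 CPM of Sox11 (interval 239 to 356) and 5.81 CPM of Sox9 (2 UMIs). Of the neuroendocrine markers reported here, Calca, Chga and Syp had 0 UMIs and Uchl1 was at 180 CPM, against 82.4 CPM in all other epithelial cells. Scgb3a2 was at 232 CPM in the group and Sftpc at 8.71 CPM on 3 UMIs. The group is given no cell type name. Its cells had a median of 7951 UMIs and 2.50% were mixed-sex. The other 707 airway-like cells had 135 CPM of Sox2, 19.5 of Sox21, 39.4 of Sox9, 520 of Sox4 and 148 of Sox11, so the group does not set the class differences for Sox2, Sox21 and Sox4 by itself.

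Airway-like cells were also read by Scgb3a2 at 5000 UMIs. Sox2 was at 124 CPM in the 512 cells with none, 202 CPM in the 118 with 1 to 4 UMIs and 159 CPM in the 71 with 5 or more. Sox4 was at 568, 549 and 450 CPM in the same order, the last below the others beyond the intervals. Sox9 ran from 37.7 to 43.7 CPM over these 3 sets, within counting error.

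For each member, up to 5 genes most like it over the 34 fine groups were named by Pearson's r among 4639 genes of at least 20 CPM; the pooled r includes the gap between the airway-like and other groups. Sox2 was followed by Tnfrsf19 (0.97), Map1b, Id4, Homer2 and Kcnk2, and Sox21 by Ifitm3 (0.96), Arl4a, Btg1 and Bbx. For Sox9 they were Lamc1 (0.96), a laminin chain of the basement membrane, Wnt7b, Etv5, Epha4 and Gata6. Sox4 gave Gadd45g (0.86), a growth arrest gene, Espn, Rbfox2, Crem and Selenop. Sox11 had the weakest likeness, with R3hdm1 at 0.74, then Sept11, Spin1, Lrrc58 and Irf2bp2.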

How the data were processed

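Single sorted lung epithelial cells of mouse embryos were measured in 1 control library; for the LEF/TCF knockout library the barcode and gene lists were used. The deposited control values are raw UMI counts that the authors did not scale; the matrix was written by software version 3.0.1, per the file headers. Per the submitters' processing notes, Cell Ranger and Seurat were used with build mm10 (GRCm38). The gene annotation, the rule for calling cells and the use of strand are not given in the sources used here.

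Cells with at least 1000 genes and at most 10% mitochondrial UMIs were kept (111 of 3568 barcodes were removed: 89 had too few genes and 90 too high a mitochondrial share, some both). No doublet caller was run and no cell was removed as a doublet; cells with 4 or more Xist UMIs and a Y-linked UMI were reported apart. The kept cells held 53639813 UMIs. After scaling each cell to 10000 and taking logs, variable genes (2000, SOX genes left out, each in 10 or more cells) gave 20 principal components and a graph of 20 neighbours, clustered by the Leiden method (resolution 0.5, and 3 for fine groups; seed 0). A cluster was epithelial if 3 or more of 5 pan-epithelial genes had 25% or more of their level over all kept cells. They were named when at least 3 markers of a class with at least 10 UMIs each over all kept cells lay at 2 or more times the level of the other cells, with no class better represented among the 10 leading genes (seen in at least 10% of cells); 4 of the 8 clusters stayed unnamed. Names were rebuilt here and may differ from those of the study.

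Levels (CPM) are summed UMIs over the summed total of a class with an exact Poisson interval; the interval is Clopper-Pearson for shares and conditional for ratios, all at 95%. UMIs of 1 cell are not independent, so only counting error is covered. Where nothing was counted, 3 counts set the limit. For detection, 5000 UMIs were drawn from each cell; cells with fewer did not enter (46 airway-like, 41 non-airway and 5 mesenchymal-like). Ratios of Sox9-only to Sox2-only cells covered genes with at least 50 UMIs over both groups. Besides the members and the genes of the lists, the text names the 8 genes with the highest and the 8 with the lowest such ratio after adding 10 CPM, and the 5 genes most like each member; genes not reported here were left out of the lists and of these rankings without replacement. The interval and ratio code was tested on simulated data. Members, gene lists and markers were chosen with earlier results of these data known. Alternatives were other filters on cells, clusterings, thinning depths, detection limits, low-count filters, folds and averages of per-cell levels. Computation used scanpy 1.11.5 with leidenalg 0.10.2 and scikit-learn 1.9.0, scipy 1.17.1 and numpy 2.4.6 under Python 3.11.15; plots were drawn with matplotlib 3.10.9.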

Additional observations from a re-analysis of the deposited data

How the results depend on the processing

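No ratio changed its direction under the alternatives run, but sizes moved beyond counting error; the cause was not tested. Values are given as in the main comparison, with ratios of non-airway to airway-like cells first. With cells limited to 14000 UMIs, ratios were 0.0277 for Sox2, 0.0510 for Sox21, 6.89 for Sox9 and 0.664 for Sox4; the epithelial levels were 37.9, 7.59, 115, 391 and 167 CPM for Sox2, Sox21, Sox9, Sox4 and Sox11; the shares were 36.3% for Sox9 and 76.9% for Sox4; joint detection of Sox2 and Sox9 was 1.08%, or 0.236 of the product; and the Sox9-only to Sox2-only ratios were 0.0250 for Sox21 and 0.580 for Sox4. Without mixed-sex cells the ratios were 0.0491, 0.0716 and 4.69 for Sox2, Sox21 and Sox9, the levels 30.6 and 5.30 CPM for Sox2 and Sox21, and the Sox9-only to Sox2-only ratio of Sox21 0.0409. With means of per-cell levels the ratios were 0.0511, 0.0724 and 5.26 for the same genes, the levels 37.5, 7.28, 124, 404 and 170 CPM for the 5 genes, and the Sox9-only to Sox2-only ratios 0.0412 for Sox21 and 0.614 for Sox4. With at least 500 genes the ratios were 0.116, 0.128 and 0.659 for Sox2, Sox21 and Sox4. With at least 2000 genes they were 0.0442, 1.64, 0.727 and 1.0001 for Sox2, Sox9, Sox4 and Sox11, and the Sox9 share was 41.8%. With at most 5% mitochondrial UMIs they were 0.0633 and 2.79, and with at most 20% 0.0617 and 2.91, for Sox2 and Sox9. Another clustering seed gave 0.0965, 0.174, 3.40 and 0.760 for Sox2, Sox21, Sox9 and Sox4; resolution 1.0 gave 0.168, 0.236, 3.55 and 0.736; SOX genes kept in the clustering gave 0.0924, 0.167, 3.57 and 0.757; and 10 components gave 0.0638 and 2.88 for Sox2 and Sox9. The airway-like class held between 461 and 1068 cells under these settings. At 3000 UMIs the shares were 8.62%, 1.76%, 28.6%, 64.4% and 39.7% for Sox2, Sox21, Sox9, Sox4 and Sox11, and joint detection was 0.824%. At 8000 UMIs they were 13.5%, 53.9%, 89.3% and 71.6% for Sox2, Sox9, Sox4 and Sox11, and joint detection was 3.56%. Without thinning joint detection was 8.35%, or 0.643 of the product. With 2 or more UMIs as detection it was 0.150%, or 0.264 of the product, and the Sox4 ratio of Sox9-only to Sox2-only cells was 0.552. Another thinning seed gave 0.0931 for Sox21. The distal count stayed between 8 and 11 and the proximal count between 3 and 6 under 12 alternatives; with at least 10 UMIs, 1 proximal gene was higher in Sox9-only cells.

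No paired analysis was possible because each group has 1 library and expression was analysed in the control library only. Counts limit the rare readouts: Sox21 has 318 UMIs over all epithelial cells, and a count of 0 in the 38 mesenchymal-like cells at 5000 UMIs allows a share of up to 7.89%, a limit set by the number of cells. The rebuilt airway-like class, not the SOX counts, differs between the clustering settings.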

Other observations

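Other SOX genes were measured as well. Of 15 on the list, 4 had at least 50 UMIs over Sox9-only and Sox2-only cells, and 1 of these, Sox5, was past 1.5-fold. It was at 12.3 CPM in Sox2-only and 6.18 CPM in Sox9-only cells (1.995-fold, interval 1.43 to 2.76). Of all genes with at least 50 UMIs, 14.5% were at least 1.5-fold higher in Sox2-only cells and 6.38% in Sox9-only cells. With 2-fold required, 0 of these SOX genes were past it in either direction. Sox6, a partner of SOX5 and SOX9 in cartilage, was at 15.2 and 13.0 CPM, and Sox12, the last SOXC gene, at 32.9 and 32.4 CPM. Sox13 was at 3.58 and 3.66 CPM. Over all epithelial cells Sox18 and Sry had 0 UMIs, and Sox17, a factor of endoderm and endothelium, had 4. Of the genes known as SOX4 and SOX11 targets in other tissues, Tead2 was at 184 CPM in Sox9-only and 174 CPM in Sox2-only cells, and Ezh2 at 132 and 117 CPM, so 0 of the 2 measured were past 1.5-fold. Tubb3 and Dcx, which are neuronal, had too few UMIs.

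Cells with a UMI of Mki67 or Top2a at 5000 UMIs, both genes of cycling cells, differed from the rest in their SOX levels. In non-airway cells Sox9 was at 164 CPM in the 1300 with such a UMI (interval 159 to 169) and at 139 CPM in the 1326 without (interval 134 to 144). Sox4 ran the other way in airway-like cells, at 474 CPM in the 188 with such a UMI (interval 448 to 501) and 588 CPM in the 513 without (interval 568 to 608). Sox2 in airway-like cells was at 152 and 138 CPM, with intervals that overlap. The share of mixed-sex cells was 9.0% and 7.01% in the non-airway sets and 7.98% and 4.68% in the airway-like sets, and its part in these differences was not tested. The 10 airway-like cells with a UMI of Trp63, the basal cell factor, had 97.5 CPM of Sox9 on 13 UMIs (interval 51.9 to 167), against 37.9 CPM in the other 691.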
